A study of Mus musculus with 9 samples.

Results

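The comparison described here is the loss of Yap in mouse embryonic stem cells labelled as already lacking Taz: 3 Yap/Taz double KO libraries against 3 Taz KO libraries. These are 6 of the 9 RNA-seq libraries of the series, and they were chosen by their sample titles. By their descriptions, Taz KO cells were Yap f/f Taz ∆/∆ and double KO cells were Yap ∆/∆ Taz ∆/∆, so by these labels both groups were without Taz and only the double KO cells were also without Yap. The genotype field of the double KO libraries repeats the Taz KO genotype, and the titles and descriptions were followed. The 3 control libraries, Yap f/f Taz f/f, are given beside the knockouts for level. All lines grew on fibronectin in N2B27 medium with 4 ng/ml of Lif and the kinase inhibitors PD0325901 at 0.4 µM (MEK) and CHIR99021 at 3 µM (GSK3), the 2i/Lif condition that holds mouse stem cells in the naive state. Both deletions rest on a Cre-ERT2 transgene under a CAG promoter, inserted by piggyBac transposition and switched on with 4-OHT at 500 nM. Whether the control cells also received 4-OHT, how many clones each genotype stands for and whether replicates are separate cultures is not stated, and the p-values therefore reflect no more than the variation among these libraries, possibly technical.

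YAP and TAZ, the latter encoded by Wwtr1, are paralogous transcriptional co-activators at the end of the Hippo pathway. When the kinases MST and LATS are active they phosphorylate both proteins, which are then kept in the cytoplasm or degraded; unphosphorylated YAP and TAZ enter the nucleus and bind TEAD factors, through which they reach DNA. Many of their target genes, such as Cyr61, Ctgf and Amotl2, encode matrix-associated proteins or feed back on the pathway itself.

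The libraries held 19139802 to 23992020 recovered reads each. Embryonic stem cell markers fixed for this check (Pou5f1, Sox2, Nanog, Esrrb and Zfp42) summed to 1061 to 1209 FPKM in Taz KO and 962 to 1094 FPKM in double KO libraries, where FPKM is fragments per kilobase of gene, scaled by depth. Of 8 fibroblast or feeder markers, Dcn, Lum and Postn were listed at 0 in all 9 libraries, and the sum of the list ran from 1.77 to 5.89 FPKM in Taz KO and from 3.17 to 10.9 FPKM in double KO, most of it Thy1. The libraries numbered 2 stood apart within both knockout groups: a chi-square per gene of the recovered reads was 28.8 to 36.4 for pairs with a number 2 library and 4.71 and 5.59 for the pairs of numbers 1 and 3. The mitochondrial genome took 3.93, 4.25 and 3.91% of reads in Taz KO and 4.82, 4.86 and 4.64% in double KO (exact permutation test, two-sided p = 0.1, the smallest that 3 against 3 libraries allow). Whether this share has a part in any result below was not tested. In bulk RNA, fewer cells of a type and less RNA per cell cannot be told apart.

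Double KO differed from Taz KO in 1620 of 11674 tested genes, 13.9% (limma, adjusted p under 0.05). Of these, 750 genes rose (6.42% of those tested) and 870 fell (7.45%). The changes were mostly moderate: 772 of them were under 0.5 in size on the log2(FPKM + 0.5) scale used throughout, 121 rises and 69 falls reached 2-fold, and the median change of all tested genes was -0.04. Falls sat at higher levels than rises, with a median mean FPKM of 16.7 against 7.22, and against 9.20 over all tested genes. Protein-coding genes made up 695 of the 743 rises of known gene type and 844 of the 864 falls. Over all tested genes of known type they were 10677 of 11533. The 2 groups were free of overlap in 1619 of the 1620 genes called, and in 3575 (30.6%) of all tested genes.

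The number of calls depended on how the shared spread of same-numbered libraries was treated and on single libraries. With the replicate number as a block, 1963 genes rose (16.8%) and 2984 fell (25.6%), and these included all 1620 genes called without it. Counts of lists below stand beside these shares where the block was used, and beside 6.42 and 7.45% where it was not. Leaving out 1 library gave 482, 2648 and 623 calls when it was Taz KO 1, 2 or 3, 759 and 627 when it was double KO 1 or 3, and 1024 when it was control 1. A set of 447 genes was called in all 9 fits that each left out 1 library. Of the 122 called genes that the naming rule picked, 73 kept their call in all 9 of those fits. Omitting Taz KO 1, 2 or 3 ended 47, 6 and 40 of these calls, omitting double KO 1, 2 or 3 ended 39, 16 and 38, and omitting control 1, 2 or 3 ended 23, 11 and 19. The losses cluster on the number 1 and 3 knockout libraries, that is Taz KO 1, Taz KO 3, double KO 1 and double KO 3. A gene below whose call is not said to be lost kept it in all 9 fits.

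**Figure D1:**
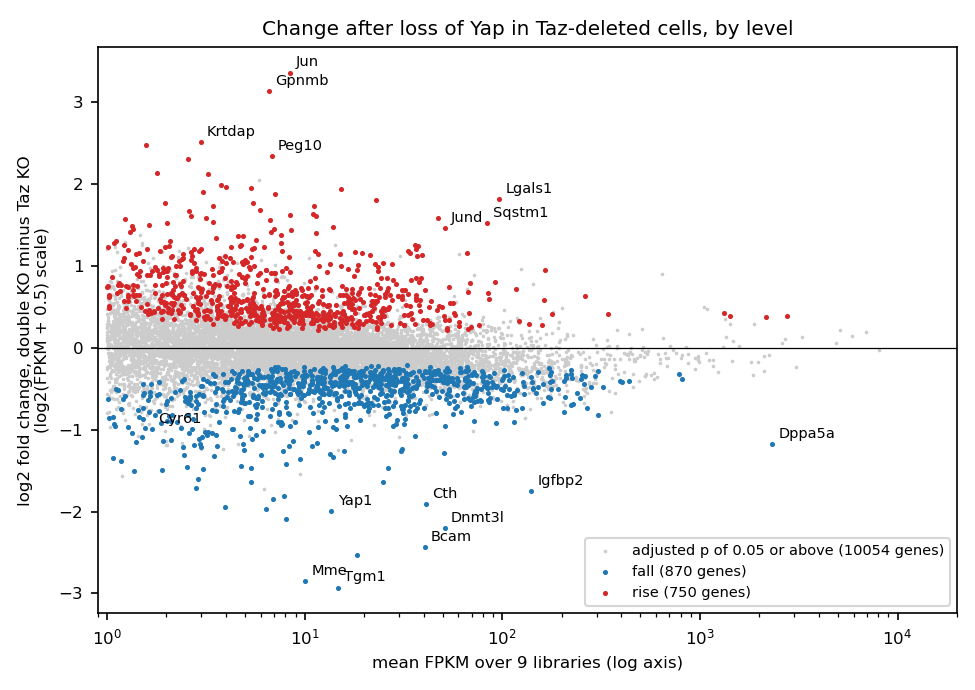
Log2 fold change of double KO against Taz KO for each of 11674 tested genes (y axis, log2(FPKM + 0.5) scale) against its mean FPKM over 9 libraries (x axis, log scale), with the 870 falls in blue and the 750 rises in red. Tgm1 and Mme lie lowest and Jun and Gpnmb highest, and Dppa5a stands out as a fall at a high level.

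Yap1 itself, a gene of chromosome 9 (ENSMUSG00000053110, chr9:7931999-8004596, mm10), checked the labels. It stood at 18.6, 17.9 and 18.5 FPKM in Taz KO 1 to 3 and at 4.14, 3.98 and 4.62 FPKM in double KO 1 to 3; values below are given in the same order of replicates. The double KO level was 23.2% of the Taz KO level (log2 fold change -1.99, SE 0.07, adjusted p = 7.75e-06), and the control libraries, at 18.1, 18.1 and 19.1 FPKM, overlapped with Taz KO. The labels do not say which exons of Yap1 are deleted, and a gene-level FPKM counts reads from every exon. Whether the remaining Yap1 reads come from intact transcript or from transcript of a deleted gene cannot be told apart. Wwtr1, the gene of TAZ, showed no call between the libraries labelled Taz KO and control: it read 12.4, 12.7 and 11.1 FPKM in control and 11.6, 9.03 and 11.9 FPKM in Taz KO, which overlapped (Taz KO against control -0.16, adjusted p = 0.684). The labels do not say which exons of Wwtr1 are deleted, so the Taz deletion of both groups could not be checked at the gene level and the group names are those of the labels. In double KO Wwtr1 read 14.7, 13.2 and 13.9 FPKM, above all Taz KO values, but the difference from Taz KO missed the threshold (log2 fold change 0.35, 95% interval 0.10 to 0.61, adjusted p = 0.0657; 0.0191 with the replicate block).

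Among the TEAD factors, the DNA-binding partners of YAP and TAZ, Tead2 rose from 33.4, 32.0 and 32.5 FPKM to 44.0, 44.3 and 43.5 FPKM (a log2 change of 0.42, SE 0.07, adjusted p = 0.00619). The Taz KO libraries were already above the control libraries, at 27.0, 25.1 and 27.9 FPKM, although that step missed the threshold (adjusted p = 0.0759). Tead1, Tead3 and Tead4 did not pass, with differences of 0.14 (95% interval -0.14 to 0.42), 0.18 (-0.25 to 0.61) and -0.25 (-0.45 to -0.06); Tead4 passed with the replicate block (adjusted p = 0.0156). Vgll4, a competitor of YAP for TEAD, rose by 0.29 (adjusted p = 0.0488), and this call was lost in all 9 fits without 1 library (adjusted p up to 0.174, without Taz KO 1) and with quantile normalization. Vgll1, Vgll2 and Vgll3 were below the filter on level. Of the 7 tested YAP, TAZ, TEAD and VGLL genes 2 thus rose and 1 fell, or 3 and 2 with the replicate block.

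Of a 22-gene published list of YAP/TAZ target genes, 15 passed the filter; 3 fell, 1 rose and the median was -0.01, beside -0.04 over all genes. Of all tested genes 7.45% fell and 6.42% rose, and the single rise of the list is near that share. With the replicate block 4 fell and 4 rose, where 25.6% of all tested genes fell and 16.8% rose. The falls with the block are thus near the share of all genes. The 7 members below the filter were Lats2, Ankrd1, Crim1, Foxf2, Ccdc80, Tgfb2 and Rbms3, all under 1 FPKM in all 9 libraries. Cyr61, which encodes a secreted matricellular protein, fell from 1.38, 0.857 and 1.34 FPKM to 0.384, 0.247 and 0.402 FPKM, with 3.27, 3.65 and 3.63 FPKM in the controls (double KO against Taz KO: log2 fold change -0.99, SE 0.16, adjusted p = 0.00765). The level thus fell at both steps, since Taz KO against control gave -1.26 (adjusted p = 0.0120). Nuak2, a kinase of the AMPK family, went from 2.94, 2.95 and 2.30 FPKM to 1.09, 1.46 and 0.897 FPKM (-0.98, SE 0.15, adjusted p = 0.00635). Its Taz KO and control values overlapped (2.89, 3.61 and 3.24 FPKM in control). Without 1 library the list held 0 rises without Taz KO 1 or double KO 1 and 2 without Taz KO 2 or double KO 2.

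Amotl2, an angiomotin family scaffold that binds YAP, fell from 12.4, 14.8 and 13.05 FPKM to 5.25, 10.5 and 5.23 FPKM (-0.96, SE 0.23, adjusted p = 0.0291). Double KO 2 lay between the other double KO libraries and Taz KO, and the call was lost without control 1, Taz KO 1, Taz KO 3, double KO 1 or double KO 3 (adjusted p up to 0.0979, without double KO 3). Ctgf, the close relative of Cyr61, did not follow it: 3.14, 3.51 and 4.94 FPKM in Taz KO and 3.20, 2.82 and 3.60 FPKM in double KO overlapped (-0.22, 95% interval -0.57 to 0.14, adjusted p = 0.380), while Taz KO was below the controls at 6.596, 7.30 and 8.10 FPKM (-0.86, adjusted p = 0.0373).

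The member that rose was Nt5e, the gene of the ecto-nucleotidase CD73. It went from 2.62, 2.91 and 4.42 FPKM to 13.7, 7.17 and 23.5 FPKM (a log2 change of 1.88, SE 0.38, adjusted p = 0.0152); the call was lost without Taz KO 1 or double KO 1 (adjusted p up to 0.0693). Igfbp3, an IGF-binding protein, Myof, a membrane repair protein, and F3, tissue factor, had differences of 1.00 (95% interval 0.19 to 1.81), 0.71 (0.14 to 1.28) and 0.60 (-0.34 to 1.54) that passed only with the replicate block (adjusted p = 0.00543, 0.00327 and 0.0114), as did Axl, a receptor tyrosine kinase, at -0.38 (-0.73 to -0.03, 0.0314 with the block). The remaining Asap1, Fjx1, Gadd45a, Dock5, Ptpn14 and Arhgef17 lay between -0.34 and 0.35, none of them past the threshold in either fit.

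Upstream, Ajuba, a LIM-domain scaffold that restrains LATS kinases, fell from 40.3, 32.0 and 43.5 FPKM to 15.3, 17.6 and 14.4 FPKM (log2 fold change -1.26, SE 0.14, adjusted p = 0.00153), with Taz KO at the level of the controls (40.3, 33.0 and 41.1 FPKM). Wwc1 (KIBRA), an upstream activator of the kinases, fell from 11.1, 10.2 and 11.8 FPKM to 6.27, 6.38 and 6.88 FPKM (-0.72, SE 0.08, adjusted p = 0.00151). Frmd6, a FERM-domain scaffold, rose from 9.64, 11.2 and 9.47 FPKM to 14.6, 14.5 and 16.7 FPKM (0.57, SE 0.09, adjusted p = 0.00769). In all, 3 of 20 tested Hippo kinases and scaffolds fell, Amotl2 among them, and 1 rose, with a median of 0.05; with the replicate block 4 fell and 2 rose. The single rise is near the 6.42% of all tested genes that rose. With the block, both shares of the list are below the 25.6% of all tested genes that fell and the 16.8% that rose. The kinases themselves did not pass: Stk3, Stk4 and Lats1 were at -0.09, -0.11 and 0.22.

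The TEAD core motif is CATTCC, read here on both strands. The promoters of Cyr61, Amotl2 and Ajuba are shown because each holds it in the 250 bases before the start site and all 3 genes fell. The sequences are from RefSeq, build GRCm38.p6, and run from 5′ to 3′ on the strand of the gene, with the motif in capitals. They lie at chr3:145649986-145650235 on the minus strand (motif starting at position -103 from the start site), chr9:102717554-102717803 on the plus strand (position -65) and chr14:54577662-54577911 on the minus strand (positions -186 and -164).
Cyr61: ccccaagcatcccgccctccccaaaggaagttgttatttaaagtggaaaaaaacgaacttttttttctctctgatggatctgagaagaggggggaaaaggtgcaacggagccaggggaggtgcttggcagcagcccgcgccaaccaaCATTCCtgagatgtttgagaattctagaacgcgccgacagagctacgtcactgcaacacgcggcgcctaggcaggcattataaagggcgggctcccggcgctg
Amotl2: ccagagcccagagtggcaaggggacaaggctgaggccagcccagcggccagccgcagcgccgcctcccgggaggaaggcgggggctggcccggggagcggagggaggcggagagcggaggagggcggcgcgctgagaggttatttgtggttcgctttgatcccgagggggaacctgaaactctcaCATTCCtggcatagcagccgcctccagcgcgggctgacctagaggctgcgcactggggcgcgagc
Ajuba: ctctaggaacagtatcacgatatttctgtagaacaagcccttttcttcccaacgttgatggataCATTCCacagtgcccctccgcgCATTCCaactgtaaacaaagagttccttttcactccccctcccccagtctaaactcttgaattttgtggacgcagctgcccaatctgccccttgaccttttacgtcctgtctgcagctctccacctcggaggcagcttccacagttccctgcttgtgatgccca
In windows of 300 bases (250 before and 50 after the start site), 11.98% of 11297 promoters of tested genes held this motif. The share was 22.2% (16 of 72 promoters; exact binomial 95% interval 13.3 to 33.6%) for falls of at least 2-fold and 14.9% (14 of 94; 8.39 to 23.7%) for rises of at least 2-fold. Some genes have several promoters: the 72 came from 53 genes and the 94 from 80. The intervals here and below treat promoters as independent. Over all called genes the share was 13.95% of promoters of falls and 12.4% of those of rises. In only the 250 bases before the start site, 10.6% of all promoters held the motif. There the share was 18.1% (13 of 72; 9.98 to 28.9%) for falls of at least 2-fold, an interval that holds the share of all promoters. For rises of at least 2-fold it was 14.9% (14 of 94). Among tested members of the target list, 4 of 9 with a promoter sequence held it. A match describes these letters and is no evidence of binding.

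**Figure D2:**
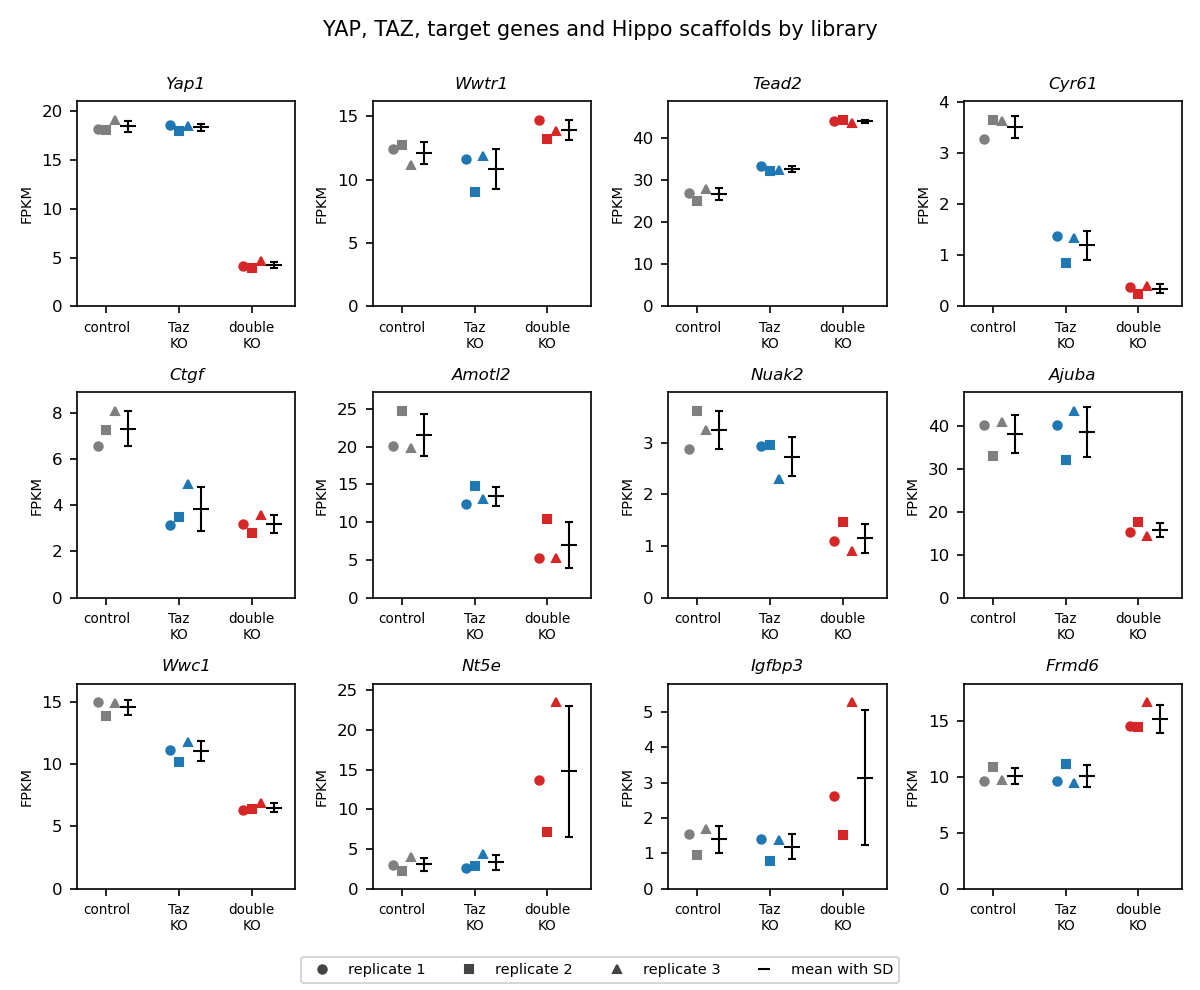
FPKM (y axis, from 0) of 12 genes of the YAP/TAZ pathway in each library of the 3 groups, with replicates 1 to 3 as circle, square and triangle and the mean with SD in black. Yap1 and Ajuba are at control level in Taz KO and low in double KO, Cyr61 and Amotl2 step down across the 3 groups, Ctgf overlaps between the knockouts, and Nt5e is high and spread out in double KO. The first step of Amotl2 missed the threshold (limma, Taz KO against control, adjusted p = 0.253).

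The largest fall was that of Tgm1, transglutaminase 1, an enzyme that cross-links proteins in cornified epithelia (chr14:55700009-55713926, mm10). It went from 22.3, 15.8 and 22.4 FPKM in Taz KO to 1.62, 2.92 and 2.17 FPKM in double KO (log2 fold change -2.93, SE 0.19, adjusted p = 0.00018), and the control libraries at 21.5, 20.4 and 23.8 FPKM overlapped with Taz KO. Mme, the cell-surface peptidase neprilysin, fell from 8.71, 9.32 and 11.8 FPKM to 0.692, 1.27 and 0.902 FPKM (-2.85, SE 0.17, adjusted p = 0.000133), after a first step from 16.4, 20.5 and 21.2 FPKM in control (-0.93, adjusted p = 0.0389). Bcam, a laminin-binding adhesion molecule, fell from 48.1, 44.2 and 49.0 FPKM to 7.79, 10.8 and 6.71 FPKM (-2.44, adjusted p = 0.00018). The groups were far apart for all 3 genes, which were picked from called genes with separate groups.

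Ddah1, which degrades the nitric oxide synthase inhibitor dimethylarginine, fell from 9.27, 7.76 and 8.21 FPKM to 1.62, 1.52 and 1.5999 FPKM (-2.10, SE 0.09, adjusted p = 2.97e-05). Accsl, at 7.05, 8.62 and 6.36 FPKM in control, was already down to 1.57, 1.29 and 1.96 FPKM in Taz KO and fell further to 0.278, 0.253 and 0.218 FPKM (-1.48, adjusted p = 0.00138). Cobl, an actin nucleator, fell from 32.2, 34.7 and 32.1 FPKM to 12.7, 11.3 and 11.001 FPKM (-1.46, SE 0.08, adjusted p = 0.000122), having stood at 32.9, 37.1 and 34.0 FPKM in control. Accsl thus fell at both steps (Taz KO against control -1.90, adjusted p = 0.00224), whereas the Taz KO and control libraries overlapped for Cobl.

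Growth factor and lipid genes were also among the 20 largest falls. Fgf17, a fibroblast growth factor, fell from 10.5, 6.83 and 9.35 FPKM to 3.23, 1.19 and 2.21 FPKM (-1.85, adjusted p = 0.00494). Igfbp2, an abundant IGF-binding protein, fell from 173, 139 and 124 FPKM to 49.5, 60.7 and 25.5 FPKM (-1.75, adjusted p = 0.00797). Lpl, lipoprotein lipase, fell from 3.26, 4.37 and 4.32 FPKM to 0.942, 1.49 and 1.01 FPKM (-1.45, adjusted p = 0.00237). The other falls of this rank were Crabp1 (-1.97, a retinoic acid-binding protein), Crtac1 (-1.95), Ppp1r1a (-1.81, a protein phosphatase 1 inhibitor), Ism2 (-1.72), Ooep (-1.64, of the oocyte subcortical complex), Klk1 (-1.63), Bpifb5 (-1.51) and Fam13c (-1.49), beside Dnmt3l and Cth, described below. All 20 kept their call in every fit without 1 library.

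The largest rise was that of Jun, described with its family below. Gpnmb, a lysosomal and melanosomal glycoprotein, rose from 0.784, 2.03 and 1.09 FPKM to 7.36, 29.8 and 14.1 FPKM (log2 fold change 3.13, SE 0.45, adjusted p = 0.00469). Double KO 2 was the highest library by far, and the lowest double KO value was still above all Taz KO and control values (0.916, 1.63 and 1.57 FPKM in control). Krtdap, a keratinocyte differentiation protein, rose from 1.105, 0.953 and 0.716 FPKM to 8.34, 5.403 and 9.61 FPKM (2.51, SE 0.21, adjusted p = 0.000475), with 0.276, 0.198 and 0.226 FPKM in control. Dusp10, a phosphatase of the stress kinases p38 and JNK, rose from 0.406, 0.686 and 0.483 FPKM to 4.55, 3.45 and 4.06 FPKM (2.14, SE 0.17, adjusted p = 0.000473).

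Plbd1, a phospholipase B-like protein, rose from 1.11, 1.62 and 1.26 FPKM to 7.60, 7.47 and 7.202 FPKM (2.12, SE 0.12, adjusted p = 0.000133). Neat1, the long noncoding RNA that scaffolds paraspeckles, rose from 3.65, 9.66 and 5.19 FPKM to 15.8, 27.0 and 19.2 FPKM (1.73, adjusted p = 0.00929). For Neat1 the Taz KO and control libraries overlapped. Further rises of this rank were Peg10 (2.34), Scara5 (2.31, a ferritin receptor), Lgals9 (1.99), Nt5e, Lgals1 (1.81), Lrrc15 (1.69), S100a14 (1.67), S100a6 (1.62), Parp10 (1.61), Plk2 (1.61) and Aqp3 (1.59, an aquaglyceroporin). Snord88c (1.77) and Cyp1a1 (1.73, a target of the aryl hydrocarbon receptor) belonged to them as well, but their calls were fragile. Snord88c kept its call only without Taz KO 2, Taz KO 3 or double KO 2, and Cyp1a1 only without control 2 or double KO 2 (adjusted p up to 0.114 and 0.117, without double KO 3). Cyp1a1 also lost its call with quantile normalization and with voom.

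**Figure D3:**
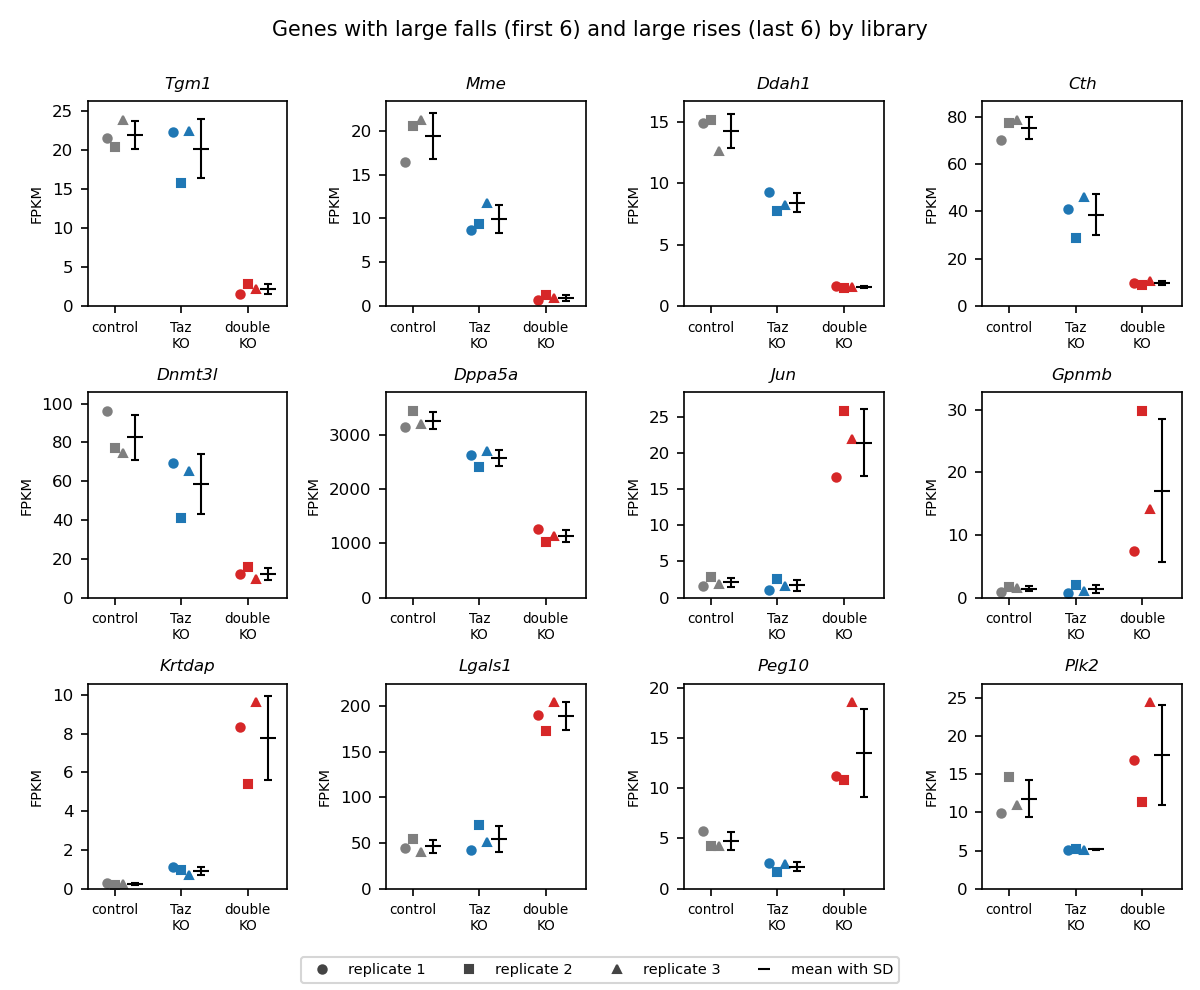
FPKM (y axis, from 0) of 6 genes with large falls and 6 with large rises in each library, with replicates 1 to 3 as circle, square and triangle and the mean with SD in black. Taz KO and double KO values do not overlap in any of the 12 panels, which the naming rule required of all of them but Dppa5a. Of all tested genes, 30.6% are free of overlap. Mme, Ddah1, Cth and Dppa5a are stepped across the 3 groups, whereas Plk2 and Peg10 have their lowest means in Taz KO and their highest in double KO. The first step of Dppa5a missed the threshold (limma, Taz KO against control, adjusted p = 0.14).

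AP-1 transcription factors are dimers of JUN, FOS and ATF family proteins and are classical immediate-early and stress-response factors. Of 7 tested AP-1 genes 4 rose and none fell, with a median of 0.99, and all 7 rose with the replicate block. Jun (chr4:95049034-95052222, mm10) went from 1.01, 2.52 and 1.54 FPKM to 16.6, 25.8 and 21.9 FPKM, 12.7-fold on the FPKM means (log2 fold change 3.36, SE 0.27, adjusted p = 0.000475), with 1.64, 2.84 and 1.84 FPKM in control. Jund rose from 30.9, 39.0 and 33.8 FPKM to 91.2, 111 and 86.8 FPKM (1.46, SE 0.12, adjusted p = 0.000521), so that it was the AP-1 gene of highest FPKM of these 4 in both groups. Junb rose from 10.3, 10.5 and 7.95 FPKM to 18.8, 20.2 and 19.4 FPKM (1.00, SE 0.10, adjusted p = 0.00138). Mafk, a small MAF protein, rose by 0.39 (adjusted p = 0.0231), a call lost without any number 1 or 3 knockout library (adjusted p up to 0.0924). Fos, Maff and Atf3 had differences of 0.99, 0.89 and 0.72 that passed only with the block.

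The AP-1 motif TGANTCA, on both strands, was found in 4.51% of the 11297 promoter windows, in 14.9% (14 of 94; exact binomial 95% interval 8.39 to 23.7%) of those of rises of at least 2-fold and in 9.72% (7 of 72; 4.00 to 19.01%) of those of falls of at least 2-fold. Over all called genes the shares were 6.51% for rises and 4.77% for falls. Krtdap and Lrrc15, both among the 20 largest rises, are shown with the motif in capitals, at position -81 in chr7:30787655-30787904 on the plus strand and at position -53 in chr16:30283255-30283504 on the minus strand (RefSeq, GRCm38.p6, strand of the gene). Lrrc15, a leucine-rich repeat membrane protein, went from 2.65, 4.61 and 3.47 FPKM to 11.3, 15.0 and 11.2 FPKM (1.69, SE 0.18, adjusted p = 0.00138).
Krtdap: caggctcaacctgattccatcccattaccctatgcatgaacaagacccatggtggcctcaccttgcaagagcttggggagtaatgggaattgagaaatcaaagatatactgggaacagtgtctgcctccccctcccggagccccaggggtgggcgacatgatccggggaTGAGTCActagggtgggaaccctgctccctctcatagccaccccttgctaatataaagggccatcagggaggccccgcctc
Lrrc15: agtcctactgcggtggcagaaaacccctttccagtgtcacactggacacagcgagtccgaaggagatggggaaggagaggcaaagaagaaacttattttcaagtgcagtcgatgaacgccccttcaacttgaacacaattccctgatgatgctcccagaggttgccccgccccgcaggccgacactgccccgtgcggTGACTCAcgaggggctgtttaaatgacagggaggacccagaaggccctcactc

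The ATF4 stress response list held the largest group of falls. ATF4 drives genes of amino acid synthesis, amino acid uptake and tRNA charging when amino acids are short or the integrated stress response is on. Of 26 tested members 17 fell and none rose (median -0.56); 21 fell with the replicate block, and 10 fell without Taz KO 1. Cth, cystathionine gamma-lyase of the transsulfuration pathway, fell most, from 40.9, 28.9 and 45.9 FPKM to 9.74, 8.95 and 10.5 FPKM (log2 fold change -1.91, SE 0.15, adjusted p = 0.000475), having stood at 70.0, 77.3 and 78.6 FPKM in control (Taz KO against control -0.98, adjusted p = 0.0226). Cbs, the enzyme before it in that pathway, fell from 11.8, 9.08 and 12.3 FPKM to 5.002, 4.53 and 5.96 FPKM (-1.02, SE 0.14, adjusted p = 0.0037). Mthfd2, a mitochondrial one-carbon enzyme, fell from 39.7, 26.6 and 45.2 FPKM to 16.1, 14.1 and 15.3 FPKM (-1.23, SE 0.17, adjusted p = 0.00445).

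Chac1, which degrades glutathione, fell from 2.80, 2.55 and 1.86 FPKM to 0.700, 1.58 and 0.529 FPKM (-1.07, adjusted p = 0.0281), a call lost without Taz KO 1, double KO 1 or double KO 3 (adjusted p up to 0.113, without Taz KO 1). The serine synthesis enzymes Phgdh, Psat1 and Psph fell by 0.87, 0.90 and 0.93 on the log2 scale, and the asparagine synthetase gene Asns fell by 0.74. The tRNA synthetase genes Gars, Aars, Nars and Wars fell by 0.61, 0.54, 0.49 and 0.39, with calls lost in 2, 6, 2 and 8 of the 9 fits (adjusted p highest without Taz KO 1 each time, up to 0.173 for Wars). Atf4 itself (-0.27) and its classical stress targets Ddit3 (0.29), Trib3 (-0.04) and Sesn2 (0.25) did not pass the threshold. The members named in these last sentences were picked by role after their values were seen.

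The motif TGATGNAA, which holds the core of the composite site of ATF4 with C/EBP factors, was added after the values were seen. On both strands it was found in 2.15% of all promoter windows and in 7 of 22 windows (31.8%, exact binomial 95% interval 13.9 to 54.9%) of the ATF4 list, which was itself compiled from known ATF4 target genes. Among all called genes the share was 2.79% for falls and 1.99% for rises. For calls of at least 2-fold it was 4.17% (3 of 72) for falls and 4.26% (4 of 94) for rises. The share of the list thus describes its members and not their change in double KO. Asns and Chac1 are shown as the best-known examples, with the motif in capitals at position -23 in chr6:7693210-7693459 on the minus strand and, on the opposite strand, at position -193 in chr2:119350992-119351241 on the plus strand (RefSeq, GRCm38.p6, strand of the gene). Asns stood at 307, 284 and 321 FPKM in Taz KO and at 184, 188 and 174 FPKM in double KO (adjusted p = 0.00138).
Asns: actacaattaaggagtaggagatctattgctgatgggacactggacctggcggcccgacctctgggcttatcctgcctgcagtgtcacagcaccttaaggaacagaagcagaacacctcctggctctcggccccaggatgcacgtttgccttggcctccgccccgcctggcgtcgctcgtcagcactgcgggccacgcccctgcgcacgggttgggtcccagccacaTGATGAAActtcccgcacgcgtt
Chac1: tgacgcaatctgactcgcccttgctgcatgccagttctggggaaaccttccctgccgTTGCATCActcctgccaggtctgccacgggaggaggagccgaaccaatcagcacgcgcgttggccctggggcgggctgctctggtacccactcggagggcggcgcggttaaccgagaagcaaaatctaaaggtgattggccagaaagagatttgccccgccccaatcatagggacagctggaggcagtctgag

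All 22 tested cholesterol biosynthesis genes had values below 0 in this comparison (19 of 22 with quantile normalization; median -0.39), and 7 of them fell; 14 fell with the replicate block. Omitting Taz KO 1 or 3 left 0 and 1 of these falls, omitting double KO 3 left 3 and omitting control 1 left 4. Lss, lanosterol synthase, went from 11.6, 9.88 and 10.5 FPKM to 7.67, 6.10 and 7.32 FPKM (-0.57, adjusted p = 0.0136), a call lost without Taz KO 1 (adjusted p = 0.0636). Sqle, squalene epoxidase, went from 31.1, 21.7 and 27.4 FPKM to 18.3, 11.9 and 17.8 FPKM (-0.73, adjusted p = 0.0283), a call lost without control 1, Taz KO 1, Taz KO 3 or double KO 3 (adjusted p up to 0.114). Nsdhl (-0.61) lost its call without Taz KO 1 or Taz KO 3, and Mvk (-0.51) kept it only without Taz KO 2 or double KO 1. Mvk was the single called gene of the whole comparison whose groups overlapped, at 13.9, 10.6 and 14.4 FPKM in Taz KO and 10.7, 7.50 and 8.85 FPKM in double KO. In fatty acid synthesis 2 of 13 fell, the desaturase gene Scd1 (-0.47, adjusted p = 0.00513, lost with quantile normalization) and the elongase gene Elovl5 (-0.39, adjusted p = 0.0202, lost without Taz KO 1, Taz KO 3 or double KO 1); 6 fell with the block and 4 without Taz KO 2.

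Of 25 glycolysis and hypoxia genes 2 fell (median -0.29), a share near the 7.45% of all tested genes that fell, and the replicate block gave 13 falls and 2 rises; without Taz KO 2 the falls were 9, without control 2, Taz KO 1 or double KO 3 there was 1, and without Taz KO 3 or double KO 1 there were 0. Pdk1, a pyruvate dehydrogenase kinase, went from 23.2, 17.6 and 21.7 FPKM to 15.3, 13.8 and 14.5 FPKM (-0.49, adjusted p = 0.0367, kept only without control 1, control 3 or Taz KO 2). Ldhb, a lactate dehydrogenase, fell by 0.40 (adjusted p = 0.0202, lost without Taz KO 3 or double KO 1 and with quantile normalization). Of 12 mitochondrially encoded genes 3 rose (median 0.21), and 1 without any number 1 or 3 knockout library. The complex I subunit gene mt-Nd6 rose from 1218, 1227 and 1174 FPKM to 1741, 1544 and 1596 FPKM (0.43, SE 0.08, adjusted p = 0.00966), and mt-Cytb and mt-Nd4 by 0.39 and 0.37 with calls lost without any number 1 or 3 knockout library; mt-Cytb also lost its call without control 1 and with quantile normalization. The mitochondrial share of reads given above counts the reads of these same genes, so it is no separate observation.

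Cell-cycle genes had small differences, mostly below 0. All 23 tested DNA replication and S phase genes were below 0 (20 of 23 with quantile normalization; median -0.25) and 4 of them fell, or 18 with the replicate block. Gins2, of the replicative helicase complex, fell from 16.7, 16.1 and 16.6 FPKM to 9.96, 10.9 and 9.57 FPKM (-0.67, SE 0.11, adjusted p = 0.0065), and Pola1, a DNA polymerase alpha subunit, from 26.2, 26.9 and 25.7 FPKM to 21.1, 20.3 and 19.03 FPKM (-0.38, adjusted p = 0.01). The helicase genes Mcm4 (-0.27) and Mcm6 (-0.25) kept their calls only without control 2 or Taz KO 2 and only without Taz KO 2, and lost them with quantile normalization. The list thus held 2 falls without any 1 library other than control 2 or Taz KO 2, and 9 without Taz KO 2. Of 23 mitosis and G2/M genes 5 fell (median -0.32), or 19 with the block, which also gave 1 rise; the count was 16 without Taz KO 2 and 1 to 3 without any other library. Ccnb2, cyclin B2, fell from 99.8, 74.9 and 93.9 FPKM to 62.0, 52.8 and 56.3 FPKM (-0.64, SE 0.11, adjusted p = 0.0105). Ccna2 (-0.44) kept its call only without Taz KO 2, Bub1b (-0.43) lost it without Taz KO 1, Taz KO 3 or double KO 3, and Nusap1 (-0.31) lost it without any number 1 or 3 knockout library and with quantile normalization.

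Among brakes and drivers of the G1 phase, Cdkn1c (p57), a CDK inhibitor, rose from 3.27, 3.92 and 3.97 FPKM to 9.13, 9.23 and 11.99 FPKM (log2 fold change 1.32, SE 0.16, adjusted p = 0.00217). Cdkn2b (p15) rose by 0.67 (adjusted p = 0.0302), a call lost without any number 1 or 3 knockout library and with quantile normalization. Ccnd3, cyclin D3, fell from 15.2, 16.8 and 14.2 FPKM to 11.2, 11.3 and 10.4 FPKM (-0.47, SE 0.09, adjusted p = 0.0107). These 3 were the calls among 8 tested genes of the list; the block gave 3 rises and 4 falls, and 1 rose without any number 1 or 3 knockout library.

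Of 19 tested p53 target genes 6 rose and 1 fell (median 0.20), with 6 and 2 under the replicate block; 3 rose without any number 1 or 3 knockout library. Plk2, a polo-like kinase induced by stress, rose from 5.05, 5.23 and 5.13 FPKM to 16.8, 11.3 and 24.4 FPKM (1.61, SE 0.24, adjusted p = 0.00531). Perp, a desmosomal p53 target, rose from 3.23, 4.23 and 2.58 FPKM to 8.94, 6.85 and 9.33 FPKM (1.22, adjusted p = 0.00543), and Btg2, an anti-proliferative gene, from 23.3, 21.05 and 17.8 FPKM to 51.5, 42.2 and 49.5 FPKM (1.19, adjusted p = 0.0037). The means of all 3 lay lower in Taz KO than among controls, where Plk2 stood at 9.88, 14.6 and 10.95 FPKM, but that step did not pass the threshold for any of them. Trp53inp1 rose by 0.85 (adjusted p = 0.0168, lost without any number 1 or 3 knockout library). The single fall of the list, named after its value was seen, was Sesn1 (-0.30, adjusted p = 0.0278, kept only without control 2, control 3 or Taz KO 2). Among BCL2 family, caspase and inhibitor genes, 2 of 23 rose and 1 fell: Birc3 (0.61, an inhibitor of apoptosis) and Bcl2l11 (0.58, the pro-apoptotic BIM) rose and Bok (-1.31) fell. These shares are near or below the 6.42 and 7.45% of all tested genes that rose and fell. Birc3 lost its call without Taz KO 1, Bcl2l11 without Taz KO 3 or double KO 3, and Bok kept it only without control 2, control 3 or Taz KO 2; the list held 5 falls with the block and 3 without Taz KO 2.

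Pluripotency genes moved unevenly. Of 20 naive pluripotency genes 5 fell and 1, Klf2, rose (median 0.02), and the replicate block gave 6 falls and 4 rises; 3 fell without control 1, control 3 or any number 1 or 3 knockout library, and 2 rose without Taz KO 2 or double KO 2. The single rise is near the 6.42% of all tested genes that rose. With the block, the counts of the list are near the 25.6% of all tested genes that fell and the 16.8% that rose. Dppa5a, an RNA-binding protein and one of the most abundant stem cell transcripts, fell from 2627, 2403 and 2696 FPKM to 1260.1, 1031 and 1127 FPKM (log2 fold change -1.18, SE 0.09, adjusted p = 0.000475), from 3147, 3441 and 3194 FPKM in control. Tcl1, a co-activator of AKT, fell from 46.0, 44.0 and 45.3 FPKM to 31.1, 23.1 and 27.0 FPKM (-0.74, SE 0.10, adjusted p = 0.0041), and Fgf4 from 95.9, 103 and 85.2 FPKM to 62.5, 64.9 and 52.6 FPKM (-0.66, adjusted p = 0.00635, lost with quantile normalization). Nr0b1 (-0.77) kept its call only without Taz KO 2, and Klf4 (-0.60) only without control 2 or double KO 2 and not with quantile normalization. The core naive factors Esrrb (0.02, 95% interval -0.22 to 0.25) and Zfp42 (0.25, -0.07 to 0.57) did not pass.

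Of 13 general pluripotency genes, Sox2 and Nanog fell, and the replicate block gave 7 falls and 1 rise. Sox2 went from 233, 227 and 217 FPKM to 185, 182 and 169 FPKM (-0.34, SE 0.08, adjusted p = 0.0242) and Nanog from 287, 241 and 309 FPKM to 224, 205 and 210 FPKM (-0.38, SE 0.10, adjusted p = 0.0333). Both calls were lost with quantile normalization and without any number 1 or 3 knockout library (adjusted p up to 0.101 for Sox2 and 0.125 for Nanog), and Nanog also lost its call without control 1, control 3 or double KO 2. The list held 5 falls without Taz KO 2. Pou5f1, which encodes OCT4, did not pass, at 460, 348 and 451 FPKM against 433, 332 and 432 FPKM (-0.07, 95% interval -0.39 to 0.25).

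Dnmt3l, the catalytically inactive partner of the de novo DNA methyltransferases, fell from 69.5, 41.1 and 65.4 FPKM to 11.99, 15.5 and 9.35 FPKM (log2 fold change -2.20, SE 0.23, adjusted p = 0.00138), with 96.2, 77.1 and 74.5 FPKM in control. It was the single call among 7 tested DNA methylation genes (median -0.17), and 4 fell with the replicate block and 2 without Taz KO 2. Of 8 formative and primed pluripotency genes 2 fell, or 1 without any number 1 or 3 knockout library, and the replicate block gave 4 falls and 2 rises. Foxd3, a forkhead factor needed for exit from the naive state, fell from 5.48, 3.54 and 6.37 FPKM to 1.80, 2.16 and 1.53 FPKM (-1.25, SE 0.20, adjusted p = 0.00635). Pou3f1 (OCT6), an early marker of that exit, fell from 1.17, 1.43 and 1.21 FPKM to 0.365, 0.680 and 0.406 FPKM (-0.86, adjusted p = 0.0153, lost without any number 1 or 3 knockout library).

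Of the markers of other lineages that passed the filter, a few changed. Of 9 tested trophectoderm genes 3 rose and none fell (median 0.42), and 1 rose without Taz KO 1 or Taz KO 3. Tfap2c, an AP-2 factor, rose from 27.3, 28.7 and 26.2 FPKM to 45.8, 37.6 and 42.6 FPKM (0.60, SE 0.09, adjusted p = 0.00456), and the keratin gene Krt8 from 24.6, 31.9 and 27.3 FPKM to 40.7, 64.0 and 47.8 FPKM (0.83, adjusted p = 0.0138, lost without Taz KO 1 or Taz KO 3). Gata2, a GATA factor, rose by 1.41 (adjusted p = 0.0465), a call kept only without Taz KO 2. The 5 trophectoderm markers fixed for the cell type check summed to 8.69 to 11.4 FPKM in Taz KO and 8.85 to 12.1 FPKM in double KO. Primitive endoderm genes included 2 falls among 6 tested, Lamb1 (-0.47) and Sparc (-0.44), both encoding basement membrane proteins, and 4 fell with the replicate block. Lamb1 lost its call without Taz KO 1 or double KO 1, and Sparc kept it only without control 2 or Taz KO 2 and lost it with quantile normalization.

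Nes, which encodes the intermediate filament nestin, rose from 4.25, 5.23 and 4.11 FPKM to 12.03, 14.5 and 13.3 FPKM (log2 fold change 1.46, SE 0.10, adjusted p = 0.00033). It was 1 of 2 neuroectoderm genes above the filter; Sox1 and Pax6 together were at 0.426 to 0.866 FPKM in Taz KO and 0.184 to 0.239 FPKM in double KO. None of 3 tested mesoderm genes passed: T, which encodes Brachyury, was at 5.60, 1.28 and 7.31 FPKM against 8.59, 1.32 and 12.2 FPKM (0.44, 95% interval -1.26 to 2.14) and was low in both number 2 libraries. None of 4 tested fibroblast genes passed either, Thy1 with a difference of 0.83 (95% interval -0.23 to 1.89) and Fbln2 of -0.56 (-0.99 to -0.13); both passed with the replicate block. No gene of a list of the 2-cell-like state reached the filter.

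Many galectin, S100 and annexin genes rose. These families encode small calcium-binding or sugar-binding proteins that are abundant in epithelia and at membranes. Of 19 tested members 10 rose and none fell (median 0.61), and 14 rose and 1 fell with the replicate block; 4 rose without Taz KO 1 or double KO 1 and 6 without double KO 3. Lgals1, galectin-1, rose from 42.6, 69.8 and 50.9 FPKM to 190, 173 and 204 FPKM (a log2 change of 1.81, SE 0.18, adjusted p = 0.00112), and Lgals9, galectin-9, from 1.93, 0.915 and 2.37 FPKM to 8.53, 5.39 and 11.2 FPKM (1.99, SE 0.30, adjusted p = 0.00513). S100a6 rose from 5.29, 5.93 and 4.16 FPKM to 14.5, 18.5 and 17.2 FPKM (1.62, SE 0.15, adjusted p = 0.000642). S100a14 rose at both steps, from 0.382, 0.370 and 0.235 FPKM in control through 1.25, 1.66 and 1.64 FPKM to 6.598, 4.91 and 6.37 FPKM (double KO against Taz KO 1.67, adjusted p = 0.000719; Taz KO against control 1.28, adjusted p = 0.0111).

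Of 17 epithelial junction genes 4 rose and 1, Bcam, fell (median 0.08); 6 rose with the replicate block and 2 without Taz KO 1, Taz KO 3 or double KO 1. Cldn3, a tight junction claudin, rose from 5.11, 5.34 and 6.29 FPKM to 14.9, 13.03 and 15.0 FPKM (1.29, SE 0.11, adjusted p = 0.000475), after a first step from 2.72, 3.39 and 2.98 FPKM in control (0.78, adjusted p = 0.0134). Cldn4 rose from 109, 173 and 114 FPKM to 220, 338 and 210 FPKM (0.95, adjusted p = 0.0257, lost without Taz KO 1, Taz KO 3 or double KO 1), and the desmosome gene Dsp by 0.97 (adjusted p = 0.0456, kept only without control 2 or Taz KO 2). The adherens junction gene Cdh1 was at 0.08 and did not pass. Of 24 actin cytoskeleton and focal adhesion genes 1 rose and 1 fell (median -0.06), namely the integrin gene Itgb5 (0.35) and the calponin gene Cnn3 (-0.41), both shares below those of all tested genes. Itgb5 lost its call without any number 1 or 3 knockout library, and Cnn3 kept it only without control 2 or double KO 2 and lost it with quantile normalization. With the block 2 of these rose and 7 fell, and 3 fell without Taz KO 2.

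The list of lysosome genes and of MiT/TFE factors, which control lysosome biogenesis, held 11 rises and no fall among 29 tested genes (median 0.34), and 27 of the 29 values were above 0. With the replicate block 24 rose; the rises numbered 4, 19 and 3 when Taz KO 1, 2 or 3 was omitted, and 7 and 4 when double KO 1 or 3 was. Sqstm1, the autophagy receptor p62, rose from 49.2, 56.3 and 48.7 FPKM to 128, 190 and 135 FPKM (a log2 change of 1.53, SE 0.14, adjusted p = 0.000707), and its control libraries, at 49.9, 49.6 and 47.9 FPKM, overlapped with Taz KO. Hexa, a lysosomal hexosaminidase subunit, rose from 58.5, 107 and 69.1 FPKM to 125, 148 and 124 FPKM (0.80, adjusted p = 0.0322, kept only without control 2 or Taz KO 2), and Rragd, a Rag GTPase at the lysosome surface, from 14.3, 22.7 and 17.7 FPKM to 27.5, 33.9 and 29.5 FPKM (0.74, adjusted p = 0.0197, lost without Taz KO 1, Taz KO 3 or double KO 3). Taz KO 2 was the highest Taz KO library for all 3 genes. The transcripts of the factors Tfeb (0.08), Tfe3 (0.08) and Mitf (-0.07) did not pass. The E-box CACGTG, which MiT/TFE factors bind and which was added after the values were seen, was found in 25.0% (8 of 32; exact binomial 95% interval 11.5 to 43.4%) of promoter windows of this list and in 10.6% of all windows. Over all called genes the share was 13.3% for rises and 11.9% for falls. The share of the list describes its members and not their change in double KO.

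Signalling targets showed small numbers of calls. The single rise of the LIF/STAT3 list and the single fall of the BMP and ID list are near the shares of all tested genes (6.42 and 7.45%). In the LIF/STAT3 list 3 of 13 fell and 1, Junb, rose; 5 fell with the replicate block or without double KO 2, and 1 fell without any other single library except control 2. Lifr, the LIF receptor, fell from 8.12, 7.76 and 8.35 FPKM to 5.07, 4.94 and 5.82 FPKM (log2 fold change -0.57, SE 0.08, adjusted p = 0.00401), while Pim3 (-0.65) kept its call only without double KO 2 and lost it with quantile normalization. The BMP target Id2, an inhibitor of differentiation factors, fell from 1.73, 1.54 and 1.63 FPKM to 0.758, 0.625 and 0.843 FPKM (-0.78, SE 0.11, adjusted p = 0.00401), after a larger first step from 7.23, 7.03 and 6.41 FPKM in control (-1.79, adjusted p = 0.000568), and was the single call among 10 BMP and ID genes, of which 1 rose and 2 fell with the replicate block. Of 14 FGF/ERK targets, Dusp5, an ERK phosphatase, rose from 1.4999, 1.83 and 1.72 FPKM to 4.09, 4.71 and 3.59 FPKM (1.08, SE 0.13, adjusted p = 0.00217), the single call of that list, of which 2 rose and 2 fell with the block. A single rise among 14 genes is near the 6.42% of all tested genes that rose. Of 11 Wnt/beta-catenin targets, Axin2 (0.73, adjusted p = 0.0174) and Cdx1 (0.76, adjusted p = 0.0189) rose; both calls were lost without Taz KO 1 or double KO 1 and that of Cdx1 also without double KO 3, and 5 genes rose and 1 fell with the replicate block.

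**Figure D4:**
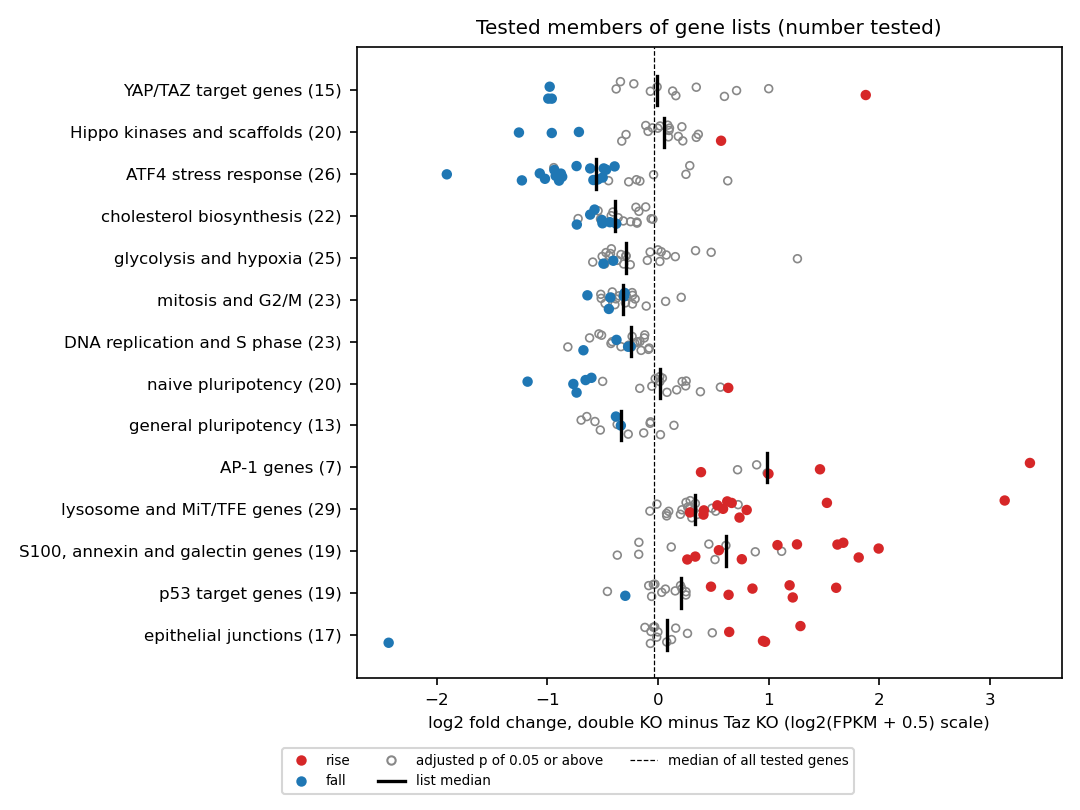
Log2 fold change of double KO against Taz KO (x axis) for the tested members of 14 gene lists (rows, number tested in brackets), with rises in red, falls in blue, genes past no threshold as open circles, list medians as black bars and the median of all genes (-0.04) as a dashed line. ATF4 stress response genes lie mostly to the left with 17 falls of 26, AP-1 genes wholly to the right with 4 rises of 7, and YAP/TAZ target genes on both sides.

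Tested genes were called at similar rates along the genome. On chromosomes 6, 8 and 14, where the median gene differed by 0.21, 0.35 and 0.10 between Taz KO and control, it differed by -0.01, -0.03 and 0.00 between double KO and Taz KO. Their shares of called genes were 15.3, 14.1 and 12.6%, inside the range of 11.6 to 17.1% of the autosomes.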

How the data were processed

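RNA from mouse embryonic stem cells was measured by poly(A) RNA-seq with a directional kit. The authors deposited one table of FPKM values per gene and library. Tools listed, without roles, in the submitters' processing notes are HTSeq 0.6.1, DESeq2 and TopHat2 2.1.1, with build mm10. The annotation, the strand setting and filters were not given in the sources used here. Overlapping and antisense genes may therefore share reads. FPKM values of 24621 of 24621 genes above 0 were whole multiples of the worth of 1 read (tolerance 0.001), which gave the recovered reads, 19139802 to 23992020 per library; this depth and 3 libraries per group set the precision.

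Genes with a mean of at least 1 FPKM over the 9 libraries (11674 of 38940) were tested on log2(FPKM + 0.5) with limma 3.58.1 in R 4.3.3: group means of all 9 libraries, moderated variances with a trend, the contrast double KO minus Taz KO, two-sided, with Benjamini-Hochberg adjustment over all tested genes and a threshold of 0.05. The fit was tried on simulated libraries drawn independently of each other. That trial held no shared spread of same-numbered libraries and cannot speak to its effect on the calls. The submitters' labels do not say what a replicate number marks. Same-numbered libraries deviated together, however, with correlations of their deviations from the group means of 0.192 to 0.711 in 9 pairs, against -0.688 to 0.394 for different numbers, so a fit with the number as a block is given beside the counts of lists and the named genes that it moved most. A fit without 1 library that leaves 2 in its group draws on the spread of all groups.

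The comparison, the 36 gene lists and the tests were chosen with earlier results of these data known. Named genes are Yap1, Wwtr1, Tead1 to Tead4 and all tested YAP/TAZ target genes, the 20 largest rises and 20 largest falls among called genes with separate groups and a gene symbol that is not a predicted gene, and up to 4 called members of each list (where none was called, up to 2 by smallest p); other names are said to be chosen after their values were seen or serve as context. A few genes that this rule picks are not reported here. Positions are from GENCODE release M21 on GRCm38 (11533 of 11674 tested genes matched by symbol or RefSeq synonym), and promoter sequences are from RefSeq for 8859 tested genes. No set test was run: lists are described by counts and medians beside those of all genes. Alternatives were other pseudocounts, filters and scalings, voom on the recovered reads, the block, fits of only the knockout libraries, and fits without single libraries.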

Additional observations from a re-analysis of the deposited data

How the results depend on the processing

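The count of called genes (1620) was 635 with only the 6 knockout libraries, 4947 with the replicate block and 5014 with the block and only the knockout libraries. Leaving out single libraries, or replicate 2 of all groups (an alternative chosen after seeing the data because those libraries stand apart), gave 482 to 4277 calls, and 122 to 308 in place of 190 calls of at least 2-fold. The 2-fold count was 90 with a filter at a mean of 5 FPKM, which tests fewer genes. Pseudocounts of 0.1 and 1, no filter on level, quantile normalization, voom, a fit with no variance trend and leaving out the genes of chromosomes 6, 8, 14 and Y kept the called count within 1.5 times. Of 141 named genes, the block added 8 calls and ended none, fitting the knockout libraries alone ended 43, quantile normalization ended 16 and added 2, and no filter on level ended 30. Direction turned in fits without 1 library for 4 uncalled genes, whose log2 fold changes over those fits ran from -0.037 to 0.039 (Asap1), -0.37 to 0.18 (Fjx1), -0.41 to 0.11 (Gsc) and -0.22 to 1.29 (T). The cause of these shifts was not tested. Reads without molecular identifiers are not independent molecules, and genes near 1 FPKM rest on few reads.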

Other observations

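Imprinted genes, expressed from one parental allele, included several rises. Of 15 tested, 5 rose and 2 fell (median 0.53), and 8 rose and 4 fell with the replicate block; without 1 library the rises were 3 without control 1 or double KO 1 and 2 without Taz KO 1, Taz KO 3 or double KO 3. Peg10, a retrotransposon-derived gene needed for placenta formation, stood at 2.53, 1.66 and 2.42 FPKM in Taz KO and at 11.2, 10.8 and 18.5 FPKM in double KO (log2 fold change 2.34, SE 0.22, adjusted p = 0.000825). The neighbours Igf2 and H19, a growth factor and a noncoding RNA, rose by 1.11 (adjusted p = 0.0331) and 1.06 (adjusted p = 0.0474). H19 went from 0.927, 1.65 and 0.757 FPKM to 1.76, 4.10 and 2.86 FPKM, which overlapped with its control libraries (2.39, 3.86 and 2.54 FPKM). Against control, double KO thus differed by -0.04 for H19 (adjusted p = 0.929) and by 1.08 for Igf2 (adjusted p = 0.0234). The first step of H19 missed the threshold (Taz KO against control -1.10, adjusted p = 0.128). Igf2 kept its call only without control 2 or Taz KO 2, and H19 only without Taz KO 2 or double KO 1. The falls were Grb10 (-0.87), a growth inhibitor, and Plagl1 (-0.79, a call lost without Taz KO 1, Taz KO 3 or double KO 1), a zinc finger factor, both named after their values were seen; the list held 4 falls without Taz KO 2 and 1 without Taz KO 1, Taz KO 3 or double KO 1.

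Antigen presentation and germline genes also held rises. Of 14 MHC class I and interferon response genes 4 rose and none fell (median 0.31), 7 rose and 1 fell with the replicate block, and 2 rose without Taz KO 1 or double KO 1. Tapbp, the peptide-loading protein tapasin, went from 22.1, 20.1 and 20.9 FPKM to 36.7, 31.1 and 33.3 FPKM (0.66, SE 0.11, adjusted p = 0.00716), and Irf1, an interferon regulatory factor, from 16.9, 13.4 and 13.9 FPKM to 23.1, 23.8 and 21.4 FPKM (0.61, adjusted p = 0.00901). B2m, the MHC class I light chain, rose by 1.16 (adjusted p = 0.0178), a call lost without Taz KO 1 or double KO 1, and Ifitm1 by 0.59 (adjusted p = 0.0485), a call lost without any single library. Of 12 germline genes 4 rose and 1 fell, or 5 and 2 with the replicate block. The X-linked homeobox genes Rhox9 and Rhox6 rose by 1.25 (adjusted p = 0.00179) and 0.97 (adjusted p = 0.00527), Nanos3 by 1.07 (adjusted p = 0.0272, lost without any number 1 or 3 knockout library), and Tdrd12, of the piRNA pathway, fell from 32.2, 28.3 and 35.7 FPKM to 15.2, 19.7 and 19.8 FPKM (-0.80, adjusted p = 0.00538). Lif, which encodes the cytokine that the medium also supplies and was chosen after its values were seen, rose from 2.80, 2.69 and 2.79 FPKM to 7.50, 3.69 and 8.38 FPKM (1.03, SE 0.24, adjusted p = 0.0258), with double KO 2 the lowest of its group and the call lost in 4 of the 9 fits without 1 library.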
